A study of Homo sapiens with 30 samples.

Results

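The genes described here are the oncogene MYC, its neighbour PVT1, the MYC partner MAX, and the MAX-network genes MNT, MXD1, MXD3, MXD4 and MLX. They were followed in OCI-Ly1, an established human line of diffuse large B-cell lymphoma. Every consensus peak inside 1 of these 8 genes, or within 10 kb of it by its GRCh38 RefSeq position, was taken as a member. That rule gave 14 of 21268 peaks of histone H3 lysine 4 trimethylation (H3K4me3), a mark of active promoters. It gave 45 of 63580 peaks of histone H3 lysine 27 acetylation (H3K27ac), a mark of active promoters and enhancers. Cells received 0.01% DMSO as solvent, or JIB-04 at 150 nM or 500 nM. JIB-04 is a small molecule that inhibits histone demethylases of the Jumonji family. Each mark had 2 chromatin immunoprecipitation sequencing libraries per treatment, 12 in all. The duration of treatment was not given in the sources used here, and nothing in them says whether the 2 libraries of a group came from separate cultures. The p-values therefore measure only the spread between these libraries, which may be technical.

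MYC is a transcription factor that binds DNA as a pair with MAX, at the E-box sequence CACGTG and its variants, and activates genes of growth and metabolism. MNT, MXD1, MXD3 and MXD4 also pair with MAX at these sites, and there they recruit SIN3 corepressor complexes, so that they oppose MYC. MLX is a MAX-like protein that pairs with the glucose-responsive factors MLXIP and MLXIPL and with some MXD proteins and MNT. PVT1 is a long non-coding RNA gene beside MYC, and MYC in B-cell lymphoma is known for activation by translocation, gain and distal enhancers.

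The total count in peaks was 9686420 to 12327122 per H3K4me3 library and 4360660 to 5410292 per H3K27ac library. The peaks of the 8 genes held 0.194% to 0.2005% of the H3K4me3 counts and 0.117% to 0.126% of the H3K27ac counts. All 14 H3K4me3 peaks and 42 of the 45 H3K27ac peaks had enough reads to be tested. The other 3, of which 2 lie in PVT1 and 1 beside MXD4, had 0 to 16 reads per library. Tested peaks of H3K4me3 stood at the gene ends of 8 of 8 B-cell markers and of 4 of 9 markers of other cell types, and those of H3K27ac at 8 of 8 and 3 of 9. Among the markers of other types, the epithelial gene EPCAM had 70.4 CPM (counts per 1000000 counts in tested peaks) of H3K4me3 in DMSO. For CPM, the count in tested peaks of each library was first multiplied by its TMM scaling factor. The H3K4me3 libraries at 150 nM differed from each other by less than sampling noise (chi-square per degree of freedom 0.923, against 1.12 in DMSO and 1.19 at 500 nM). They were kept as 2 samples because DMSO replicate 1 and 150 nM replicate 1 were also that close (0.952). In H3K27ac the 150 nM libraries were the least alike (2.39, against 1.32 and 1.25). Reads on unplaced contigs made up 71.5 and 45.9 per 1000000 counts in all peaks in DMSO replicate 2 and 150 nM replicate 2. They made up 322 to 446 in the other H3K27ac libraries.

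The RefSeq promoter table (GRCh38.p14) held a start for 6 of the 8 genes. The 250 bases before each start were searched for the E-box CACGTG, which reads the same on both strands. It was found before MNT, MXD4 and MLX, and not before MXD1, MXD3 or either of the MAX starts. Of all 35116 promoters in the table, 6.34% held it in the same window, and of 27305 genes 7.73% did for at least 1 start. The windows of the 3 genes with the E-box are shown because each lies under an H3K4me3 peak, and that of MXD3 because its start carried the clearest H3K4me3 change. Each runs 5′ to 3′ up to the base before the start, with the E-box in capitals.
MNT, chr17:2401061-2401310, minus strand: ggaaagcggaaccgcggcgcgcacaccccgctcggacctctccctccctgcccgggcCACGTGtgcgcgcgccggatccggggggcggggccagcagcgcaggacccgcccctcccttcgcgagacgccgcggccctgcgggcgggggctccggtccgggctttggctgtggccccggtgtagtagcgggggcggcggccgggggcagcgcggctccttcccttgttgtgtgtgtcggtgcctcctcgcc
MXD4, chr4:2262110-2262359, minus strand: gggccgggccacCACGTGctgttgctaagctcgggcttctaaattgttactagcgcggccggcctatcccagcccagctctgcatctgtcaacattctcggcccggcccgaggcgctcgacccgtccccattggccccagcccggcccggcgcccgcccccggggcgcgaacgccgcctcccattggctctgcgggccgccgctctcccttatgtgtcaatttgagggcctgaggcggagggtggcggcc
MLX, chr17:42566850-42567099, plus strand: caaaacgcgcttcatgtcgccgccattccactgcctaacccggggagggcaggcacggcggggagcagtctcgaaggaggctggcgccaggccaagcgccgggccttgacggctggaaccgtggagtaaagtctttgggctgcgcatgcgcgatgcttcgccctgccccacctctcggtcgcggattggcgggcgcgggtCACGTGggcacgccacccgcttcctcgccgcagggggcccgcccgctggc
MXD3, chr5:177312753-177313002, minus strand: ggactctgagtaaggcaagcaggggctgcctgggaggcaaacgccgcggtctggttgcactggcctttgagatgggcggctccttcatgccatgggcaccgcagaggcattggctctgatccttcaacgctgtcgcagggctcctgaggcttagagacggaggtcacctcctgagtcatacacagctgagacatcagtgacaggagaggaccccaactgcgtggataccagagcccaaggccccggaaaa

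The E-box begins 193 bases before the start in MNT, 238 in MXD4 and 50 in MLX. In all 3 genes an H3K4me3 peak covered it. H3K27ac was split at this place in MNT and MXD4. The MNT E-box lay in a gap of 244 bp between neighbouring acetylation peaks (chr17:2401014-2401257), and the MXD4 E-box in a gap of 327 bp (chr4:2262131-2262457). In MLX the acetylation peak ran across it. Such breaks were not limited to genes with the E-box. Before the MXD1 start, acetylation peaks ended at chr2:69914765 and began again at chr2:69915093. Around a MAX start (chr14:65101684) they ended at chr14:65101458 and began again at chr14:65101729. At MXD3, also without the E-box, the acetylation peak ran across the start. Whether the gaps go with the E-box was not tested. A match of these letters is a description of the window and not a measured binding site.

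MYC carried the highest H3K4me3 count of any tested peak. Its single peak (chr8:127733902-127741054, 7153 bp) spans the low-coordinate end of MYC and most of the gene, and overlaps an end of the long non-coding RNA gene CASC11. It held 653 and 707 CPM with DMSO, 678 and 679 with 150 nM, and 640 and 685 with 500 nM. It ranked 1 of 20402 tested peaks in each of the 6 libraries, and the next peak held 436 to 494 CPM. The peak ranked 80 by length, and per kb it stood at 95.1 CPM in DMSO, rank 1, against a median of 16.99 over all tested peaks. Per kb it ranked 1 in 5 libraries and 2 in 500 nM replicate 2. Levels were not divided by input, which was not analysed here, so copy number and occupancy cannot be told apart.

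Among the start peaks of the 8 genes, MYC was followed per kb by MXD1 (48.4 CPM per kb in DMSO) and MLX (47.2). MAX (37.6) and MNT (36.7) came next, then PVT1 (34.3), MXD3 (32.6) and MXD4 (30.7). The DMSO libraries of MXD1 and MLX overlapped, as did those of MAX and MNT. The other neighbours in this order did not overlap in the DMSO libraries. PVT1 begins beyond a stretch of 52.9 kb without an H3K4me3 peak, measured from the end of the MYC peak, and its start peak (chr8:127793943-127797618) stood in the top 25.9% per kb.

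**Figure D1:**
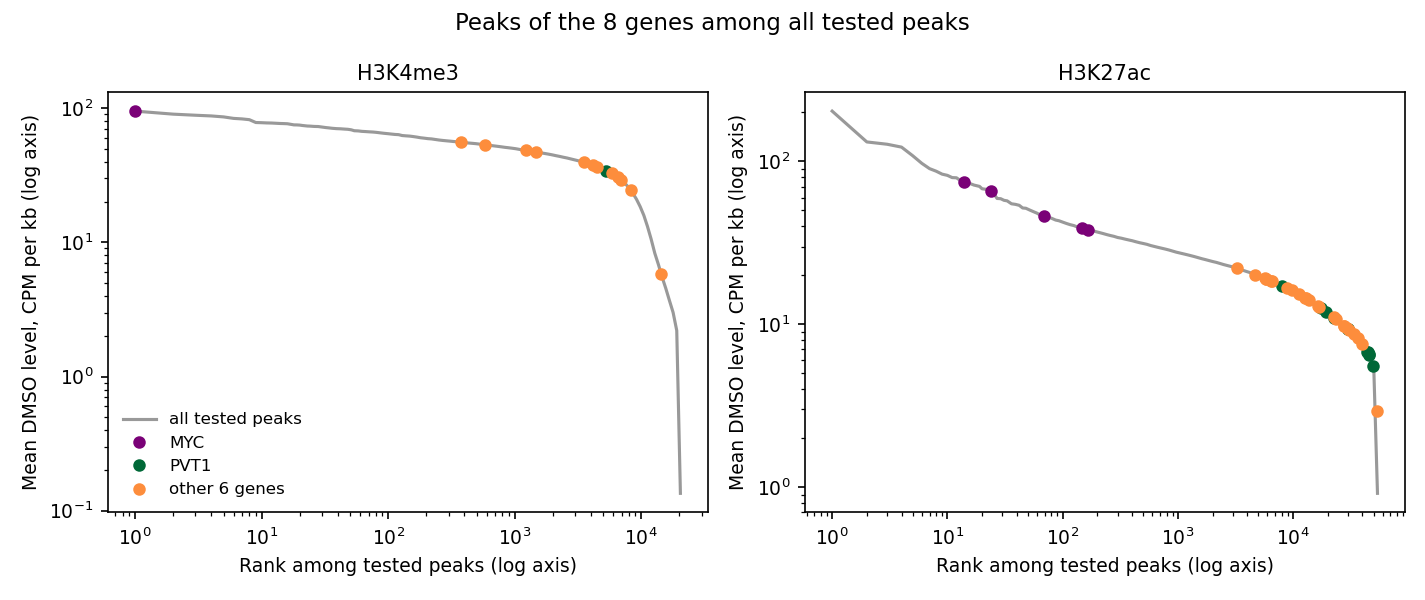
Mean DMSO level per kb of each peak (vertical, CPM per kb, log axis) against its rank among all tested peaks (horizontal, log axis), for H3K4me3 on the left and H3K27ac on the right. The grey line is all tested peaks and the points are the peaks of the 8 genes. The MYC peak of H3K4me3 is at rank 1, and the 5 MYC peaks of H3K27ac are at ranks 14 to 166.

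MYC was also the most acetylated of the 8 genes. It had 5 H3K27ac peaks, all within the top 0.307% of 54037 tested peaks per kb. The main one (chr8:127734216-127739452, 5237 bp) held 74.4 CPM per kb in DMSO, rank 14. A peak 5061 bp beyond the high-coordinate end of the gene (chr8:127748012-127749580) held 65.4, rank 24. The median over all tested H3K27ac peaks was 9.96 CPM per kb. PVT1 had 14 acetylation peaks, 12 of them tested, at 5.53 to 17.2 CPM per kb. The highest of these lay over its low-coordinate end, nearest to MYC. The remaining 6 genes had tested acetylation peaks at 2.95 to 22.0 CPM per kb, none of them as high as the lowest MYC peak at 38.0.

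**Figure D2:**
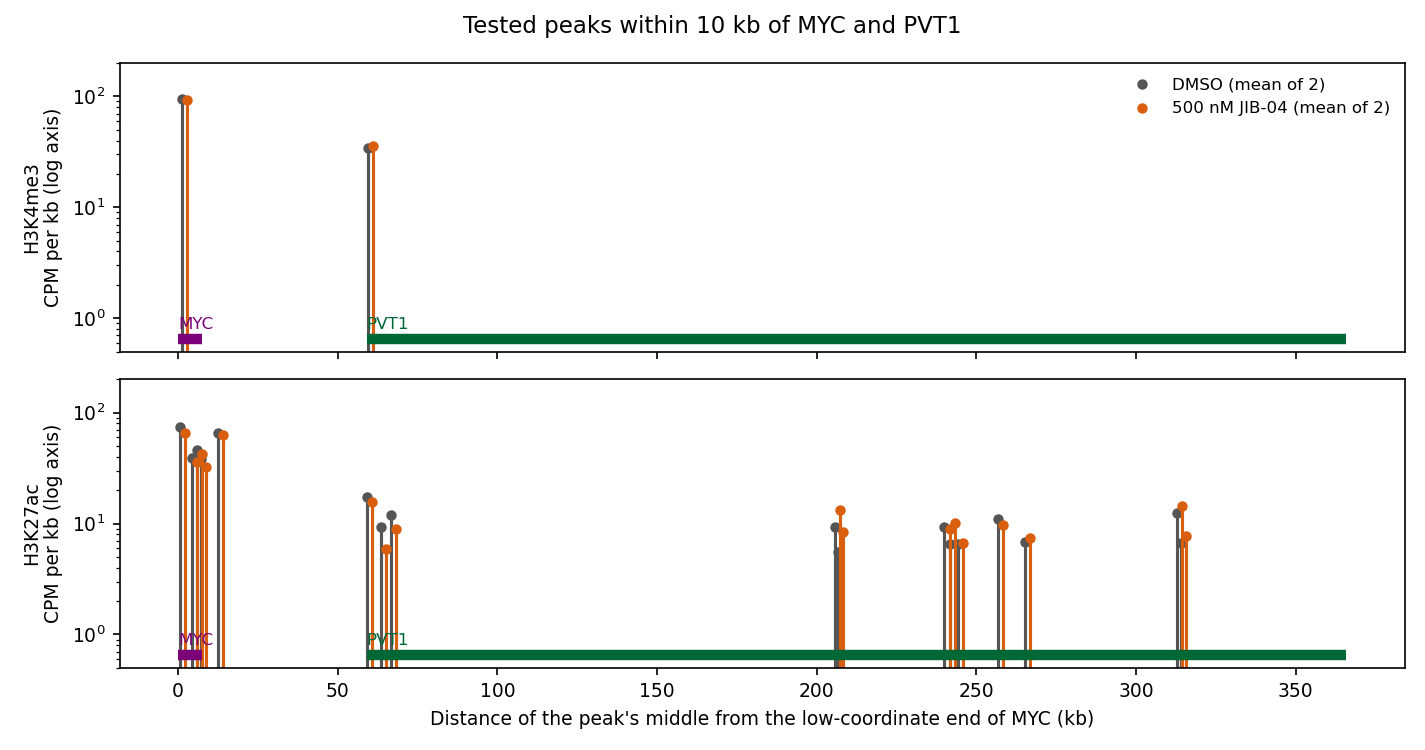
Level per kb of each tested peak within 10 kb of MYC and PVT1 (vertical, CPM per kb, log axis) against the distance of its middle from the low-coordinate end of MYC (horizontal, kb). Grey is the mean of 2 DMSO libraries and orange the mean of 2 libraries at 500 nM, drawn side by side, and the bars at the bottom are the genes. The tallest peaks of both marks lie at MYC, and H3K27ac within PVT1 stays at or below 17.2 CPM per kb in DMSO.

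The first comparison asks where the inhibitor changed H3K4me3 at these genes. At 500 nM against DMSO, 3 of the 14 peaks passed an adjusted p under 0.05 (edgeR quasi-likelihood test), 1 higher and 2 lower. Of all tested peaks 39.4% did so, 20.7% higher and 18.7% lower, and of the 4081 most abundant, where 8 of the 14 fall, 39%. The share among these genes was thus no higher than the background. Their median log2 fold change was -0.04 against -0.01 over all tested peaks and -0.06 over the 4081 most abundant. In a bulk sample, fewer cells with the mark and less of it per cell cannot be told apart.

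MYC, the activator, did not pass the test at 500 nM: its log2 fold change was -0.04 (SE 0.03, adjusted p 0.3002). The treated libraries at 640 and 685 CPM overlapped the DMSO libraries at 653 and 707, and within both of these groups the libraries lay further apart than the group means. The sign depended on the scaling and the libraries. It turned to 0.08 with loess offsets on abundance (adjusted p 0.00120) and to 0.01 on removal of DMSO replicate 2 or of 500 nM replicate 1. Without DMSO replicate 1 it was -0.10 (adjusted p 0.000185), and without 500 nM replicate 2 it was -0.09 (adjusted p 0.00229).

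PVT1 held 129 and 123 CPM with DMSO, 121 and 121 with 150 nM, and 135 and 127 with 500 nM. The 500 nM libraries lay above both 150 nM libraries and overlapped those of DMSO. Against DMSO the log2 fold change at 500 nM was 0.06 (SE 0.04, adjusted p 0.241). MAX, the shared partner, held 102 and 107 CPM with DMSO, 105 and 102 with 150 nM, and 104 and 108 with 500 nM. Its groups overlapped throughout, and its log2 fold change at 500 nM was 0.02 (SE 0.04, adjusted p 0.736).

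Among the repressive partners, H3K4me3 fell at the start of MXD3. The peak over that start (chr5:177310405-177313273, 2869 bp) held 91.6 and 95.7 CPM with DMSO, 91.7 and 89.8 with 150 nM, and 81.6 and 79.8 with 500 nM. Both 500 nM libraries lay below the other 4. The fall was 0.21 on the log2 scale (log2 fold change -0.21, SE 0.05, adjusted p 0.000125), and it passed the threshold under all alternatives tried, DESeq2 and the removal of each library included. The neighbouring peak, 200 bp beyond the other end of MXD3 and over the starts of PRELID1 and RAB24, had a log2 fold change of -0.03 (SE 0.04, adjusted p 0.525). Summed over both peaks, MXD3 was the 1 gene of 8 that passed at 500 nM against DMSO (log2 fold change -0.09, SE 0.03, adjusted p 0.0209), where 40.9% of all gene-wise sums did. Lower calls made up 19.5% of all sums. That gene-wise call was lost in the fit of the 4 libraries of the contrast, with total-count or loess scaling, with a mean count of at least 50, with DESeq2, and on removal of DMSO replicate 2, 150 nM replicate 1 or 500 nM replicate 1.

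MNT showed a second fall, inside the gene and not at its start. The peak 6435 bp downstream of the start (chr17:2391534-2394625) held 88.4 and 91.9 CPM with DMSO, 86.2 and 87.3 with 150 nM, and 83.4 and 79.7 with 500 nM. The 500 nM libraries were the lowest of the 6 (log2 fold change -0.14, SE 0.05, adjusted p 0.0107). This call was lost with scaling by the total count (adjusted p 0.0631), loess offsets (0.134), DESeq2 (0.224), and on removal of DMSO replicate 2 (0.0962) or 500 nM replicate 2 (0.106). At the MNT start (chr17:2398798-2402863), which holds the E-box, H3K4me3 was 150 and 148 CPM with DMSO, 148 and 146 with 150 nM, and 146 and 152 with 500 nM. At 500 nM the libraries overlapped those of both other groups, the 150 nM libraries lay below DMSO, and the log2 fold change at 500 nM was -0.01 (SE 0.04, adjusted p 0.884). Another, weak MNT peak of 678 bp at 3.92 CPM in DMSO did not pass the test (-0.29, SE 0.24).

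MXD1 and MXD4 did not pass the test. The MXD1 start peak (chr2:69913626-69916273) held 126 and 130 CPM with DMSO, 128 and 122 with 150 nM, and 119 and 129 with 500 nM (log2 fold change at 500 nM -0.05, SE 0.04, adjusted p 0.347). The MXD4 start peak (chr4:2260652-2263192) held 77.2 and 78.8 CPM with DMSO, 80.9 and 78.6 with 150 nM, and 77.1 and 74.2 with 500 nM (log2 fold change -0.04, SE 0.05, adjusted p 0.558). In MXD1 the groups overlapped, and in MXD4 the 500 nM libraries were the lowest. A second MXD4-side peak, over the starts of HAUS3 and POLN, had a log2 fold change of -0.02 (SE 0.05, adjusted p 0.812).

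At MLX the start itself did not pass, while a neighbouring start did. The MLX start peak (chr17:42566430-42568128) held 78.8 and 81.7 CPM with DMSO, 79.4 and 78.3 with 150 nM, and 77.4 and 77.6 with 500 nM (log2 fold change -0.05, SE 0.05, adjusted p 0.452). The peak over the start of the neighbouring gene PSMC3IP (chr17:42576665-42579082) lay 3462 bp beyond MLX. It held 97.4 and 93.2 CPM with DMSO, 91.9 and 92.8 with 150 nM, and 105 and 103 with 500 nM. Both 500 nM libraries lay above the other 4, and H3K4me3 rose there (log2 fold change 0.12, SE 0.04, adjusted p 0.0202). That call was lost with DESeq2 (0.264), on removal of DMSO replicate 2 (0.193) and on removal of 500 nM replicate 1 (0.165). The peak on the other side of MLX, over the start of COASY, an enzyme of coenzyme A synthesis, had a log2 fold change of -0.07 (SE 0.04, adjusted p 0.1499).

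**Figure D3:**
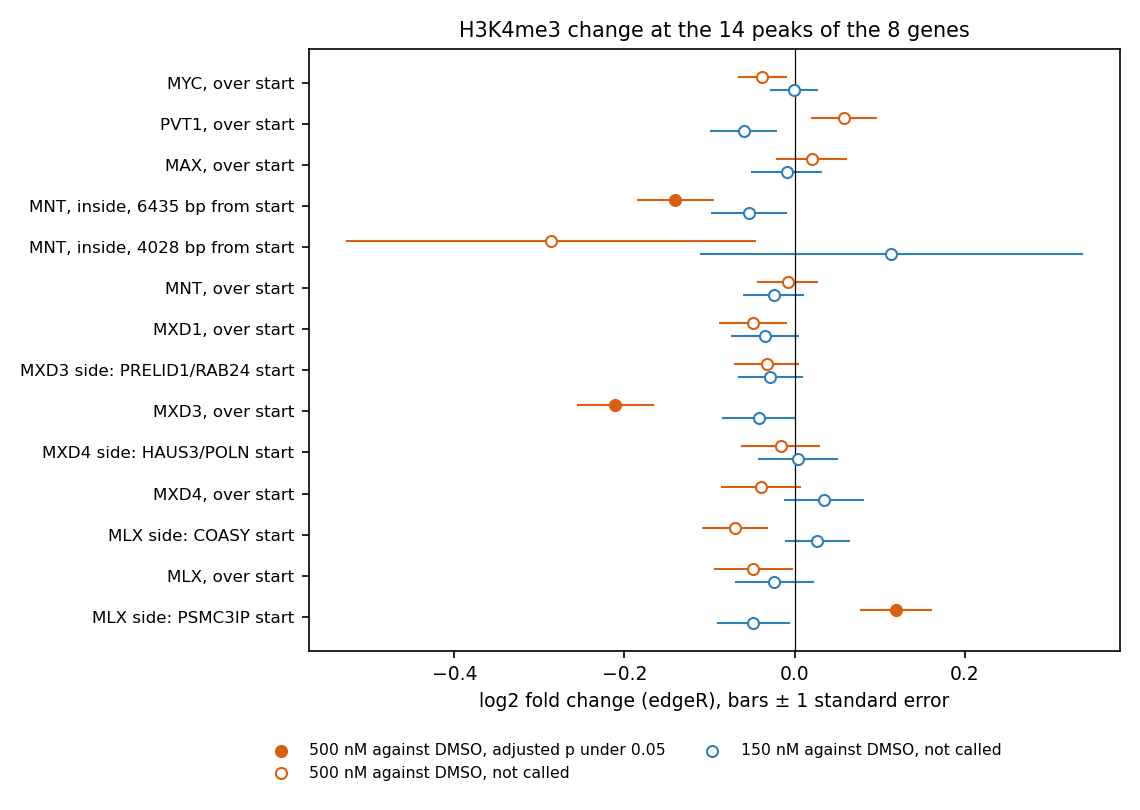
Log2 fold change of H3K4me3 (horizontal) at each of the 14 peaks (vertical), from edgeR, with bars of 1 standard error. Orange is 500 nM against DMSO and blue 150 nM against DMSO. Filled points passed an adjusted p under 0.05: the MXD3 start at -0.21, the inner MNT peak at -0.14 and the PSMC3IP start beside MLX at 0.12.

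At 150 nM against DMSO, H3K4me3 passed the test at 0 of the 14 peaks and at 0 of the 8 genes, where 0% of all tested peaks and 0% of all gene-wise sums did. At an unadjusted p under 0.05 edgeR counted 0 of 14, against 4.66% of all peaks, and 0 of 8, against 4.3% of all sums. DESeq2 called 0 of either. The log2 fold changes ran from -0.06 at PVT1 to 0.11 at the weak MNT peak. At 500 nM against 150 nM, which shares the 500 nM libraries with the first comparison, 4 of the 14 peaks passed, 2 higher and 2 lower, against 39.2% of all peaks, 20.5% higher and 18.6% lower. The MXD3 start fell (-0.17, SE 0.05, adjusted p 0.00223) and the PSMC3IP start rose (0.17, SE 0.04, adjusted p 0.00123). PVT1 rose (0.12, SE 0.04, adjusted p 0.0136) and the COASY start fell (-0.10, SE 0.04, adjusted p 0.0418). DESeq2 called 0 of these 4. The PVT1 call was also lost on removal of 150 nM replicate 1 (0.0892), of its replicate 2 (0.0818), and of 500 nM replicate 1 (0.294). Leaving out a library likewise ended the COASY call in 3 of the 4 cases, with adjusted p from 0.0578 to 0.326, as did total-count scaling (0.194), loess offsets (0.492) and a mean count of at least 50 (0.112). Gene-wise, PVT1 was the 1 of 8 that passed (0.13, SE 0.04, adjusted p 0.00675), where 41.1% of all sums did and 21.8% were higher. That call was lost with DESeq2 and on removal of either 150 nM library or of 500 nM replicate 1.

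**Figure D4:**
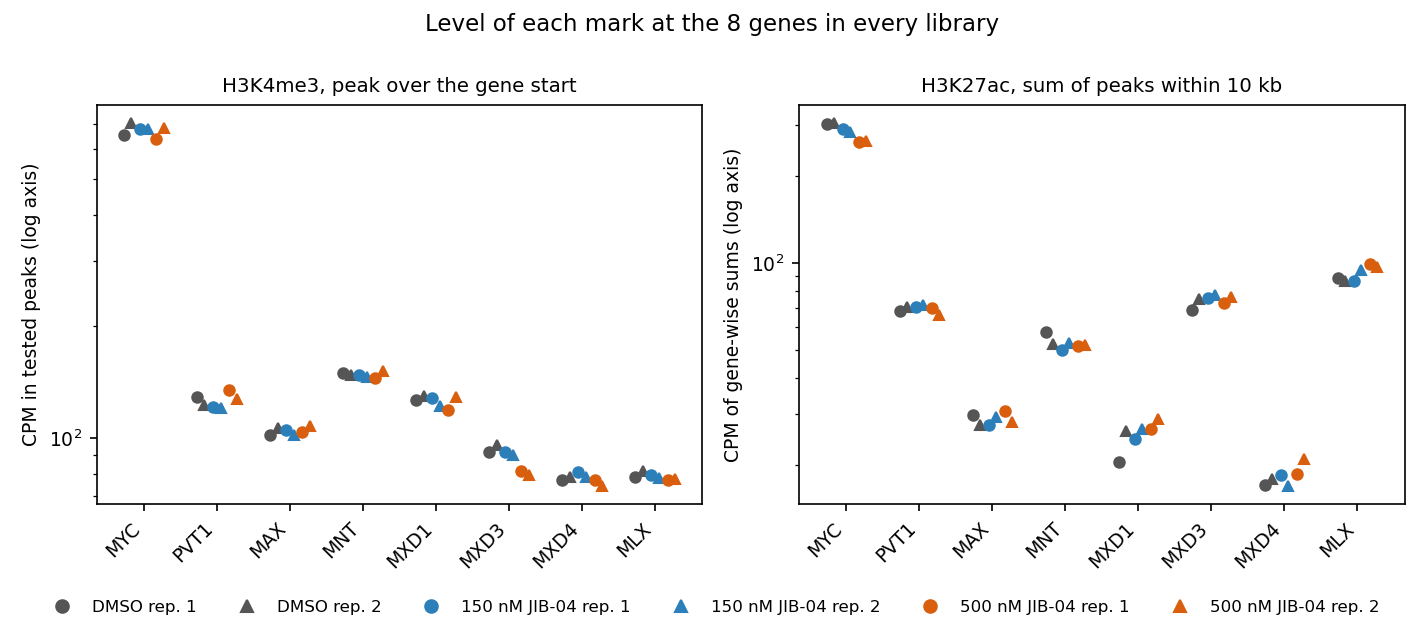
Level of H3K4me3 in the peak over each gene start (left) and of H3K27ac summed over the peaks within 10 kb of each gene (right), both as CPM on a log axis, with 1 point per library. Circles are replicate 1 and triangles replicate 2, and levels of peaks of different lengths are not compared here. The MXD3 start is lower in both 500 nM libraries on the left, and the MYC sum descends from 303 and 306 in DMSO to 263 and 264 at 500 nM on the right.

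The second mark asks whether acetylation changed at the same genes. None of the 42 tested H3K27ac peaks passed at 500 nM against DMSO, where 0.923% of all tested peaks did. At an unadjusted p under 0.05 edgeR counted 4 of 42, or 9.52%, against 11.5% of all peaks, and DESeq2 called 0. Gene-wise, 0 of 8 genes passed, where 1.76% of all sums did. At an unadjusted p under 0.05 there were 2 of 8, MYC and MLX, against 16.4% of all sums, and DESeq2 called 0. The median count per H3K27ac peak was 21 to 24 per library, and the median SE over the 42 peaks was 0.21. An SE is not a limit of detection, and changes well above it could be missed. The MXD1 peak described below did not pass at a log2 fold change of 0.64 (SE 0.18, edgeR adjusted p 0.0861).

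MYC had lower acetylation at 500 nM in all of its peaks by sign, without passing the test. Its gene-wise sum was 303 and 306 CPM with DMSO, 292 and 285 with 150 nM, and 263 and 264 with 500 nM, where this CPM is relative to the sums of all genes. The groups did not overlap, and 150 nM lay between the others. The log2 fold change at 500 nM was -0.21 (SE 0.06, unadjusted p 0.00370, adjusted p 0.0949). All 5 peaks had a log2 fold change below 0, from -0.23 to -0.05. The main peak held 380 and 400 CPM with DMSO, 347 and 385 with 150 nM, and 336 and 351 with 500 nM (-0.18, SE 0.08, adjusted p 0.328). The 500 nM libraries lay below DMSO, and 351 at 500 nM was above 347 at 150 nM. This peak passed in the fit of the 4 libraries of the contrast (adjusted p 0.0170) and on removal of 150 nM replicate 1 (0.0193) or replicate 2 (0.0238). The gene-wise sum passed under the same 3 alternatives, and with the contig split of the libraries as a term.

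PVT1 showed no common direction in acetylation. Its gene-wise sum was 68.5 and 70.5 CPM with DMSO, 70.4 and 71.5 with 150 nM, and 70.0 and 66.0 with 500 nM (log2 fold change at 500 nM -0.03, SE 0.07, adjusted p 0.871). Of the 12 tested peaks, 7 had a log2 fold change above 0 and 5 below it, from -0.65 to 0.64, with a lowest adjusted p of 0.563. MAX had a sum of 29.8 and 27.5 CPM with DMSO, 27.6 and 29.3 with 150 nM, and 30.7 and 28.3 with 500 nM (0.04, SE 0.09, adjusted p 0.863). In both genes the 500 nM libraries overlapped those of DMSO, and in PVT1 they lay below both 150 nM libraries.

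Of the repressive partners, MXD1 had the largest acetylation difference relative to its error. The peak 344 bp before the gene (chr2:69914003-69914765) held 13.3 and 14.8 CPM with DMSO, 19.8 and 19.0 with 150 nM, and 19.2 and 24.8 with 500 nM. The libraries of both doses lay above those of DMSO, and the doses overlapped each other. The log2 fold change was 0.64 at 500 nM (SE 0.18, adjusted p 0.0861) and 0.46 at 150 nM (SE 0.19, adjusted p 1.00), so neither passed. At 500 nM it passed in the fit of the 4 libraries (0.00702), on removal of 150 nM replicate 1 (0.00726) or replicate 2 (0.00861), and with the contig split as a term (0.0420). The peak over the MXD1 start, 8.28 and 12.2 CPM in DMSO and 11.9 and 13.3 at 500 nM, overlapped between the groups (0.28, SE 0.23).

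At the MXD3 start, where H3K4me3 fell, acetylation did not pass the test. The peak over it held 30.8 and 39.3 CPM with DMSO, 36.1 and 43.4 with 150 nM, and 36.9 and 34.0 with 500 nM (log2 fold change 0.01, SE 0.14, adjusted p 0.990). The 500 nM libraries lay between those of DMSO. The MNT peaks on either side of its start had log2 fold changes of 0.01 and -0.12 (SE 0.14 and 0.15). The MXD4 peak over its start, at 4.37 and 6.02 CPM in DMSO and 6.78 and 8.80 at 500 nM, had 0.57 (SE 0.29, adjusted p 0.450).

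At MLX all 5 acetylation peaks had a log2 fold change above 0 at 500 nM, and none passed. They include the peaks over the COASY and PSMC3IP starts, outside MLX. They also include a weak peak 9437 bp beyond the gene, at 0.631 CPM in DMSO. The MLX start peak held 32.2 and 32.5 CPM with DMSO, 32.5 and 36.9 with 150 nM, and 40.9 and 40.1 with 500 nM (0.32, SE 0.14, adjusted p 0.332). The 500 nM libraries were the highest of the 6. The COASY-side peak held 39.8 and 42.1 CPM with DMSO, 42.3 and 49.0 with 150 nM, and 48.8 and 58.7 with 500 nM (0.39, SE 0.13, adjusted p 0.162). Here 49.0 at 150 nM overlapped the 500 nM libraries, and H3K4me3 under it had the opposite sign (-0.07). This peak also passed in each of the 4 alternatives just named for the MXD1 peak.

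**Figure D5:**
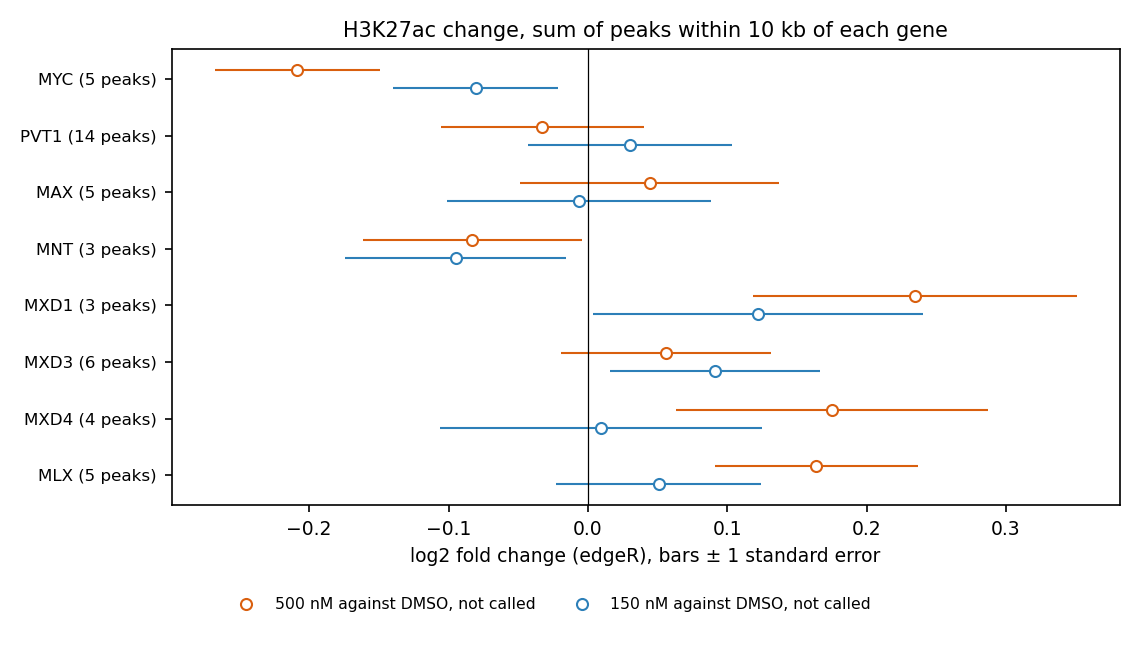
Log2 fold change of the gene-wise H3K27ac sum (horizontal) for each of the 8 genes (vertical, with the number of peaks summed), from edgeR, with bars of 1 standard error. Orange is 500 nM against DMSO and blue 150 nM against DMSO. All points are open because none passed an adjusted p under 0.05, and MYC at -0.21 and MXD1 at 0.23 mark the ends of the range at 500 nM.

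At 150 nM against DMSO, 0 of 42 acetylation peaks and 0 of 8 genes passed, where 0.00185% of all peaks and 0% of all sums did. At an unadjusted p under 0.05 edgeR counted 1 of 42, against 3.94% of all peaks, and 0 of 8, against 4.52% of all sums. DESeq2 called 0 of either. At 500 nM against 150 nM, 0 of 42 and 0 of 8 passed, where 1.27% and 1.49% did. The unadjusted count was 4 of 42, against 10.2% of all peaks, and 1 of 8, against 13.5% of all sums. DESeq2 called 0 of either. For MYC the gene-wise log2 fold change was -0.08 (SE 0.06) at 150 nM against DMSO and -0.13 (SE 0.06, adjusted p 0.368) at 500 nM against 150 nM.

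The rest of the pathway was read at 1 peak per gene, over its start or, where the table gave none, at either end of the gene. Of 8 further network genes, 6 had a tested H3K4me3 peak, and at 500 nM against DMSO 0 rose, 2 fell and 4 did not pass, where 39.4% of all peaks passed. The genes that fell were MXI1, another repressive MAX partner (185 ± 5.88 CPM in DMSO and 169 ± 2.16 at 500 nM, SD, n = 2, log2 fold change -0.13, SE 0.03, adjusted p 0.00284), and the E-box factor USF2 (-0.10, SE 0.04, adjusted p 0.0432). MYCL, a MYC paralog, had 0.12 (SE 0.05, adjusted p 0.0612). The median of the 6 was 0.07, of the opposite sign to the calls, against -0.01 over all peaks. Of 18 cofactor and turnover genes, 17 had a peak, and 0 rose, 7 fell and 10 did not pass, with a median of -0.07. Of all tested peaks 20.7% were called higher and 18.7% lower. The median was -0.01 over all tested peaks and -0.06 over the 4081 most abundant. The largest falls were at RUVBL2, a chromatin-remodelling ATPase whose peak also covers the GYS1 start (-0.24, SE 0.04, adjusted p 8.39e-07), and at HCFC1 (-0.19, SE 0.03, adjusted p 3.55e-06). The HCFC1 peak also covers the starts of HCFC1-AS1 and TMEM187.

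Of 22 known MYC targets, all with a tested H3K4me3 peak, 3 rose, 3 fell and 16 did not pass, where 39.4% of all peaks passed, 20.7% higher and 18.7% lower. The median was 0.00. SHMT2, a mitochondrial enzyme of serine metabolism, fell from 356 ± 8.45 CPM to 255 ± 5.78 (SD, n = 2, log2 fold change -0.48, SE 0.03, adjusted p 1.80e-20). That peak was found at an end of SHMT2, whose start the table did not give, and it also covers the COXFA4L2 start. BCAT1, which transfers amino groups from branched-chain amino acids, rose from 61.7 ± 0.923 to 87.2 ± 5.52 CPM (0.50, SE 0.05, adjusted p 8.76e-13). The BCAT1 peak also covers the BCAT1-DT start. CCND2, a D-type cyclin, rose by 1.49 (SE 0.39, adjusted p 0.00170) at a peak of only 0.785 CPM in DMSO. Of the 8 neighbours on the chromosome only CASC11 had a tested peak at an end, which is the MYC peak itself. In H3K27ac, 6 network genes, 17 cofactors, 21 targets and 1 neighbour were tested, and 1 gene passed at 500 nM against DMSO, where 0.923% of all peaks did. It was SHMT2, which fell (-0.36, SE 0.09, adjusted p 0.0222). At 150 nM against DMSO, 0 genes of these lists passed in either mark.

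Over the 12 libraries, with each mark centred on its own mean, the genes whose gene-wise log2 CPM followed MYC most closely among 21613 genes were BOP1 (Pearson r 0.940), ZNF398 (0.938) and PDLIM5 (0.938). A total of 17 genes had r above 0.9. Of the other genes described here, MNT had the highest r with MYC, 0.39, and MLX the lowest, -0.85. PVT1 had -0.09, MAX -0.24, MXD1 -0.49, MXD3 -0.01 and MXD4 -0.56. These values are a description over 12 points that share libraries and scaling.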

How the data were processed

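Histone marks were measured in OCI-Ly1 cells, and the 12 libraries of H3K4me3 and H3K27ac were used of 30 in the series. The 18 libraries of input, H3K9me2 and H3K9me3 were not analysed here. The deposited tables hold a whole-number count per consensus peak and library, which the authors made with featureCounts 2.0.1 per the file headers, unstranded, with multiple overlaps allowed and a minimum overlap fraction of 0.2. The paired-end flag in the headers and the single-end reads in the labels disagree, so it is unsure whether reads or fragments were counted. Nothing says how replicates entered the consensus. The submitters' processing notes name GRCh38, Trim Galore 0.6.7, BWA 0.7.17-r1188, Picard 2.27.4, MACS2 2.2.7.1, deepTools 3.5.1 and edgeR 3.42.4, with no role or order. The deposited starts count from 0, so 1 was added to them. Peak lengths for values per kb were taken from these shifted starts and the deposited ends.

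The tests used edgeR 4.0.16 under R 4.3.3 (filterByExpr, TMM, glmQLFit and glmQLFTest on the 6 libraries of a mark), with Benjamini-Hochberg adjustment over all tested peaks at 0.05. Standard errors came from the F statistic. Gene-wise values sum all peaks inside a gene or within 10 kb, so neighbouring genes share peaks. CPM is relative to reads in tested peaks, so a change of all peaks alike is not measured. The procedure was tested on simulated data. Gene positions and promoters came from RefSeq, GRCh38.p14. MYC and PVT1 had no promoter entry, so a gene end stood for their start. Exons, introns and UTRs were not analysed here.

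Alternatives were median-of-ratios, total-count and loess scaling, no filter or a mean count of at least 50, a replicate block, the 4 libraries of a contrast alone, DESeq2 1.42.0, a distance of 1 kb, and leaving out each library. A term for the contig split in H3K27ac was chosen after seeing the data. The members and lists were chosen with earlier results of these data known. The text names, by rule, each gene's start peak, its most abundant peak, each called peak, and the 3 largest changes per list, of which 1 is not reported here. Reads carry no molecular identifiers, so errors from counting alone are lower limits.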

Additional observations from a re-analysis of the deposited data

How the results depend on the processing

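For 500 nM against DMSO in H3K4me3, edgeR called 3 of the 14 peaks, DESeq2 called 1, and leaving out 1 library gave 1 to 4. With scaling by the total count the split was 1 higher and 1 lower, and with loess offsets 3 higher and 1 lower. For 500 nM against 150 nM the count of 4 became 0 with DESeq2, 2 for peaks within 1 kb, and 2 to 4 without a library. The gene-wise count of 1 against DMSO (MXD3, lower) was 1 with total-count scaling but for PVT1, higher, and became 2 with loess offsets (PVT1 and MLX, both higher), and 0 with the filter at a mean count of 50, the 4 libraries alone or DESeq2. It was 0 to 2 without a library. Against 150 nM the count of 1 became 2 with loess offsets, 0 with DESeq2, and 0 to 2 without a library. The H3K4me3 change at MYC reversed from -0.038 to 0.0775 with loess offsets, and ran from -0.100 to 0.0134 without a library, reversing without DMSO replicate 2 or 500 nM replicate 1. In H3K27ac at 500 nM against DMSO the count of 0 peaks became 3 with the 4 libraries alone, 2 with the contig split as a term, and 0 to 3 without a library. The gene-wise count of 0 became 1 with the 4 libraries alone, 1 with the contig split, and 0 to 1 without a library. The H3K27ac calls added by the 4 libraries alone or by leaving out a library all arose without 1 or both of the 150 nM libraries. The cause was not tested. A group left with 1 library was assumed to vary like the others.

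The main tests did not pair the libraries by the replicate numbers in their labels. The correlation of same-numbered deviations was 0.01 to 0.06 in H3K4me3 and 0.00 to 0.13 in H3K27ac. With the replicate block the MYC H3K4me3 change was called (adjusted p 0.0492), as were 2 H3K27ac peaks at 500 nM against DMSO, the MXD1 peak before the gene (0.0216) and the COASY-side peak. Over all tested peaks at 500 nM against DMSO, DESeq2 called 3479 in H3K4me3 against 8034, and 114 in H3K27ac against 499. The block gave 1150 in H3K27ac, the contig split 1274 and the 4 libraries alone 2105. With 2 libraries a group, and 21 to 24 reads in the median H3K27ac peak, only large changes could be called in single H3K27ac peaks of about that count. The main MYC peak of H3K27ac was far deeper, at 1632 to 2044 reads per library, with an SE of 0.08 at 500 nM against DMSO.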
